A study of Mus musculus with 8 samples.

Results

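A set of 10 canonical imprinted genes outside the Kcnq1 and Igf2 domains was followed on both alleles: Grb10, Gnas, Zdbf2, Mest, Peg3, Plagl1, Peg10, Sgce, Nnat and Herc3. They are 10 of the 21352 genes in the deposited tables, of which 20368 lie on chromosomes 1 to 19, and 9 of the 10 had reads. The genes were chosen by name, with their allele shares in these libraries already known, so shares and levels per allele are given as a description. The only test run on them compares the shares between the H3K27me3 libraries. The working name of the set, imprinted genes with skewed H3K27me3, held for only some of them. At both stages, 3 of 9 (Grb10, Gnas and Zdbf2) lay at least 20 percentage points from an even split. Mest did so at 1 stage, and 5 did so at neither. Over all genes of chromosomes 1 to 19 with enough reads, 3.86% lay that far on the same side at both stages. With the shares known beforehand, nothing is read from these counts.

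Imprinted genes are expressed mainly from the copy inherited from 1 parent. The parental copies are told apart by DNA methylation laid down in the egg or sperm, and at many loci the silent copy also carries H3K27me3, the histone mark that Polycomb repressive complex 2 places at repressed genes. Primordial germ cells (PGCs), from which eggs and sperm arise, erase the DNA methylation imprints as they colonise the gonad.

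The libraries came from CUT&RUN, in which an antibody directs a tethered nuclease to its target and the released DNA is sequenced. PGCs had been sorted by flow cytometry from pooled B6 x Cast hybrid embryos of 1 sex, and every embryo group carried Oct4-eGFP+/-. Female groups had the genotype Xist KO/+ and the male group Xist KO/Y, so no library came from embryos without the Xist knockout. The 5 libraries analysed were H3K27me3 from females at E12.5 (E for embryonic day) and at E11.5, and the untargeted control IgG from males at E11.5, from females at E12.5 and from females at E13.5. Each group had 1 library, and 3 samples labelled as second H3K27me3 replicates were not analysed here, so the spread between replicates is unknown. Intervals given with the values are exact 95% intervals that cover counting error only, since reads without molecular identifiers need not be independent molecules. Both H3K27me3 libraries were set against the same 3 IgG libraries.

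Reads were counted per gene on a first and a second allele, and the second-allele share is the percentage of a gene's allelic reads that lay on the second. The H3K27me3 libraries held 5250167 reads at E12.5 and 2451205 at E11.5, and the IgG libraries between 1378513 and 5880641. Pooled over chromosomes 1 to 19 the share was between 50.8% and 51.6% in all 5. Which strain is the first allele, and which strain was the mother of the female embryos, is not given in the sources used here, so strain and parent of origin cannot be told apart. In the male IgG library 93.7% of X reads lay on the first allele, and a male receives its X from its mother. Xist itself was not analysed here. As a check on the antibody and the cells, levels of both alleles together were compared with IgG E12.5 for lists of marker genes. The median fold of Hox genes, textbook Polycomb targets, was 7.80 at E12.5 and 8.16 at E11.5, and that of housekeeping genes 0.428 at E12.5 and 0.472 at E11.5. Germ cell markers had medians of 0.481 at E12.5 and 0.394 at E11.5, with 0 genes at 2-fold. Somatic gonad markers had 3.52 at E12.5 and 4.86 at E11.5, with 7 of 7 genes past 2-fold, and blood and endothelial markers 1.74 at E12.5 and 1.69 at E11.5, with 2 of 6 past it. These are levels of a repressive mark and not of RNA, and purity was not measured. Fewer cells with the mark and less mark per cell cannot be told apart in such libraries.

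The genes fell into groups by where the H3K27me3 reads lay. Grb10, Gnas and Mest had more second-allele reads than IgG and first-allele reads between 0.549-fold and 1.49-fold of it, and Zdbf2 was enriched on the first allele instead. Sgce and Peg10 had more reads than IgG on both alleles. With libraries scaled to their reads of chromosomes 1 to 19, Plagl1, Peg3 and Herc3 had fewer reads than IgG on both alleles in every pair of libraries, except the first allele of Plagl1 at E11.5 over IgG E12.5 (1.12-fold), and Nnat had 0 reads in every library.

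The promoter sequences of the 4 one-sided genes are shown because imprinted control regions often lie at CpG-rich starts, and the CpG content differed between the 4. Each is the RefSeq window (GRCm38.p6, the assembly that mm10 names) from 250 bases before to 50 bases after a transcript start, given 5′ to 3′ on the gene's strand with each CG dinucleotide in capitals. Where a gene had several starts, the window with the most CG was taken. That choice does not mark a window as an imprinted control region. The windows are chr11:12037371-12037670 on the minus strand for Grb10, chr2:174329756-174330055 on the plus strand for Gnas, chr6:30737800-30738099 on the plus strand for Mest and chr1:63273019-63273318 on the plus strand for Zdbf2.
Grb10: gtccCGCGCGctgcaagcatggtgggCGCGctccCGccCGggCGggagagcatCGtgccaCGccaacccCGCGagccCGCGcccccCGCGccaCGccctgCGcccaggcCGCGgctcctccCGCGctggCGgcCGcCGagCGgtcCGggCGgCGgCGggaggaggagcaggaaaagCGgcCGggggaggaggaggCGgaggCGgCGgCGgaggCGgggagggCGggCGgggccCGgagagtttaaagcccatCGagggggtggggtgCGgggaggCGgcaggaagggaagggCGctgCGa
Gnas: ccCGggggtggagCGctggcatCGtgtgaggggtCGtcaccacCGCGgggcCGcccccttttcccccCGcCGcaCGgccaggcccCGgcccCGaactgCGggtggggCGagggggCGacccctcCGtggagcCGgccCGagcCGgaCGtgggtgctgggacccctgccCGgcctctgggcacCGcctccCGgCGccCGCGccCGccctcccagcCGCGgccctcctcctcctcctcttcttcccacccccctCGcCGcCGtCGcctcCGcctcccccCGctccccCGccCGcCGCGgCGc
Mest: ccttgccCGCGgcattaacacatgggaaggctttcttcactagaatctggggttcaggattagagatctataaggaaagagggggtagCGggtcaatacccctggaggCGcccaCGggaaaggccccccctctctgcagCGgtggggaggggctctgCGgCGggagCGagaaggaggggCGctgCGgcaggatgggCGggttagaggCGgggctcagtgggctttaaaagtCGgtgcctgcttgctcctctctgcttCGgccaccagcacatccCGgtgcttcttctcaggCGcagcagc
Zdbf2: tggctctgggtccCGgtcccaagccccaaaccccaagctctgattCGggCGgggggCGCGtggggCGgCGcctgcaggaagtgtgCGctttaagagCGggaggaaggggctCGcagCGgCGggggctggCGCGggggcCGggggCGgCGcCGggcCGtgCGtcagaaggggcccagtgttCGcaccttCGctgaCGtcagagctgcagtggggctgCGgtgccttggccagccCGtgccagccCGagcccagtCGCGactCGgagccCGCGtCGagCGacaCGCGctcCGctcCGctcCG

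The Grb10 window held 45 CG, a number reached by 1.93% of the 32851 RefSeq promoter windows of the same length, and its GC content was 80.0%. The Gnas window held 40 CG (reached by 3.91% of windows) and the Zdbf2 window 38 (reached by 4.95%). The Mest window held 17, which 31.4% of windows reached. Of the genes outside these 4, Plagl1 had 26 CG (reached by 16.9%), Nnat 17, Peg3 13 and Herc3 4. CG number thus did not set the one-sided genes apart, since Plagl1 had more than Mest. Each of these is the highest window of its gene, set against all single windows, which favours genes with several starts. CG reads the same on both strands, and the search letters were CG alone. The reads were counted over whole genes, so nothing here resolves the mark to these windows. For 8 of the 10 genes a RefSeq window was at hand, and Peg10 and Sgce were without one.

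Grb10 (chr11:11930499-12037428) encodes an adaptor that binds growth factor receptors and restrains growth. In most mouse tissues it is expressed from the maternal copy, and in neurons from the paternal copy. Its second allele carried 570 of 799 H3K27me3 reads at E12.5 and 288 of 369 at E11.5. These are shares of 71.3% (68.1 to 74.5) at E12.5 and 78.0% (73.5 to 82.2) at E11.5. The IgG shares lay nearer to an even split, at 54.0% in males at E11.5, 56.8% in females at E12.5 and 48.7% in females at E13.5.

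The Grb10 excess was a gain on the second allele relative to IgG. Counted per 1000000 reads of chromosomes 1 to 19 (CPM), second-allele reads stood at 114 CPM in H3K27me3 at E12.5 and 122 CPM at E11.5, against 50.1, 49.5 and 50.1 CPM in IgG at E11.5, E12.5 and E13.5. First-allele reads were 45.6 CPM at E12.5 and 34.4 at E11.5 in H3K27me3, against 42.7, 37.6 and 52.8 in IgG at E11.5, E12.5 and E13.5. Over the most deeply read control, IgG E13.5, the second allele stood at 2.26-fold (1.96 to 2.62) at E12.5 and 2.44-fold (2.06 to 2.88) at E11.5. The first allele stood at 0.865-fold (0.725 to 1.03) at E12.5 and 0.655-fold (0.503 to 0.835) at E11.5. At E12.5 the side of IgG on which the first allele fell varied with the control, and over IgG E12.5 it was 1.20-fold.

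Gnas (chr2:174284320-174346744) encodes the stimulatory G protein alpha subunit and related products from several alternative promoters, some used on the maternal and some on the paternal copy. All of its transcripts are counted here as 1 gene. The second allele held 427 of 562 H3K27me3 reads at E12.5, a share of 76.0% (72.2 to 79.5), and 210 of 286 at E11.5, a share of 73.4% (67.9 to 78.5). The IgG shares were 53.1%, 61.2% and 46.9% at E11.5, E12.5 and E13.5, so the E12.5 IgG library leaned toward the second allele as well, with an interval of 49.99% to 71.6% on 85 reads. Second-allele reads were 85.1 CPM at E12.5 and 89.1 at E11.5, against 25.04, 34.3 and 21.2 in IgG at E11.5, E12.5 and E13.5. First-allele reads were 26.9 CPM at E12.5 and 32.3 at E11.5, against 22.1, 21.8 and 24.0 in IgG at E11.5, E12.5 and E13.5. The second-allele fold was thus 4.00 (3.27 to 4.95) at E12.5 and 4.19 (3.34 to 5.30) at E11.5 over IgG E13.5, and 2.46 at E12.5 and 2.58 at E11.5 over IgG E12.5. The first-allele fold lay between 1.12 and 1.47 over the 6 pairs of an H3K27me3 and an IgG library. Over IgG E13.5 it was 1.12 (0.876 to 1.43) at E12.5 and 1.35 (1.001 to 1.79) at E11.5, and the latter interval leaves out 1.

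Mest (chr6:30733506-30748466), a paternally expressed gene of the alpha/beta hydrolase family, had the most one-sided H3K27me3 of the 9 genes at E11.5. Its second allele held 163 of 237 reads at E12.5, a share of 68.8% (62.5 to 74.6), 18.8 points from an even split and short of 20. At E11.5 it held 113 of 130, a share of 86.9% (79.9 to 92.2). The IgG shares were 51.9%, 47.4% and 47.2% at E11.5, E12.5 and E13.5, on 27, 38 and 123 reads. Second-allele reads were 32.5 CPM at E12.5 and 48.0 at E11.5, against 10.3, 11.9 and 10.2 in IgG at E11.5, E12.5 and E13.5. Only 74 reads at E12.5 and 17 at E11.5 lay on the first allele, or 14.7 CPM at E12.5 and 7.21 at E11.5, against 9.58, 13.2 and 11.4 in IgG at E11.5, E12.5 and E13.5. The second allele was 3.18-fold IgG E13.5 (2.35 to 4.39) at E12.5 and 4.70-fold (3.41 to 6.59) at E11.5. The first allele was 1.29-fold (0.915 to 1.83) at E12.5 and 0.647-fold (0.348 to 1.09) at E11.5, and both of these intervals include 1. The counted length of Mest, 24919 bases, exceeds its RefSeq span of 14961, and Mest and Copg2 overlap by 913 bases. Copg2 had shares of 51.8% at E12.5 and 44.3% at E11.5.

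Zdbf2 (chr1:63200358-63314576), a paternally expressed zinc finger gene, was the only gene of the 9 with an H3K27me3 share at least 20 points toward the first allele at either stage. The first allele held 164 of 213 reads at E12.5 and 78 of 93 at E11.5, which left second-allele shares of 23.0% (17.5 to 29.2) at E12.5 and 16.1% (9.32 to 25.2) at E11.5. Of genes with at least 20 reads, 0.381% had a lower share at E12.5 and 0.128% at E11.5. The other one-sided genes were less unusual. At E12.5 95.5% of genes had a lower share than Grb10, 96.7% than Gnas and 94.3% than Mest. At E11.5 these were 97.2%, 96.0% and 98.4%. The shares chose the genes, so these ranks are a description. In IgG the shares were 53.1%, 64.7% and 50% at E11.5, E12.5 and E13.5, on 32, 17 and 160 reads. First-allele reads were 32.7 CPM at E12.5 and 33.1 at E11.5, against 11.05, 3.96 and 14.0 in IgG at E11.5, E12.5 and E13.5. Second-allele reads were 9.76 CPM at E12.5 and 6.37 at E11.5, against 12.52, 7.26 and 14.0 in IgG at E11.5, E12.5 and E13.5. The first allele was 2.32-fold IgG E13.5 (1.77 to 3.08) at E12.5 and 2.36-fold (1.71 to 3.27) at E11.5, and the second 0.699-fold (0.478 to 1.01) at E12.5 and 0.466-fold (0.243 to 0.794) at E11.5. Over IgG E12.5 the first-allele folds were 7.64 at E12.5 and 7.77 at E11.5, but that library had 6 first-allele reads in the gene. The counted length of 41312 bases is within 4 bases of the 41308 between the inner RefSeq start at 63273269 and the end of the gene. The outer start and the sequence after it therefore appear not to be counted. Gpr1, which overlaps the long RefSeq span by 22921 bases, had shares of 48.6% at E12.5 and 45.1% at E11.5.

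**Figure D1:**
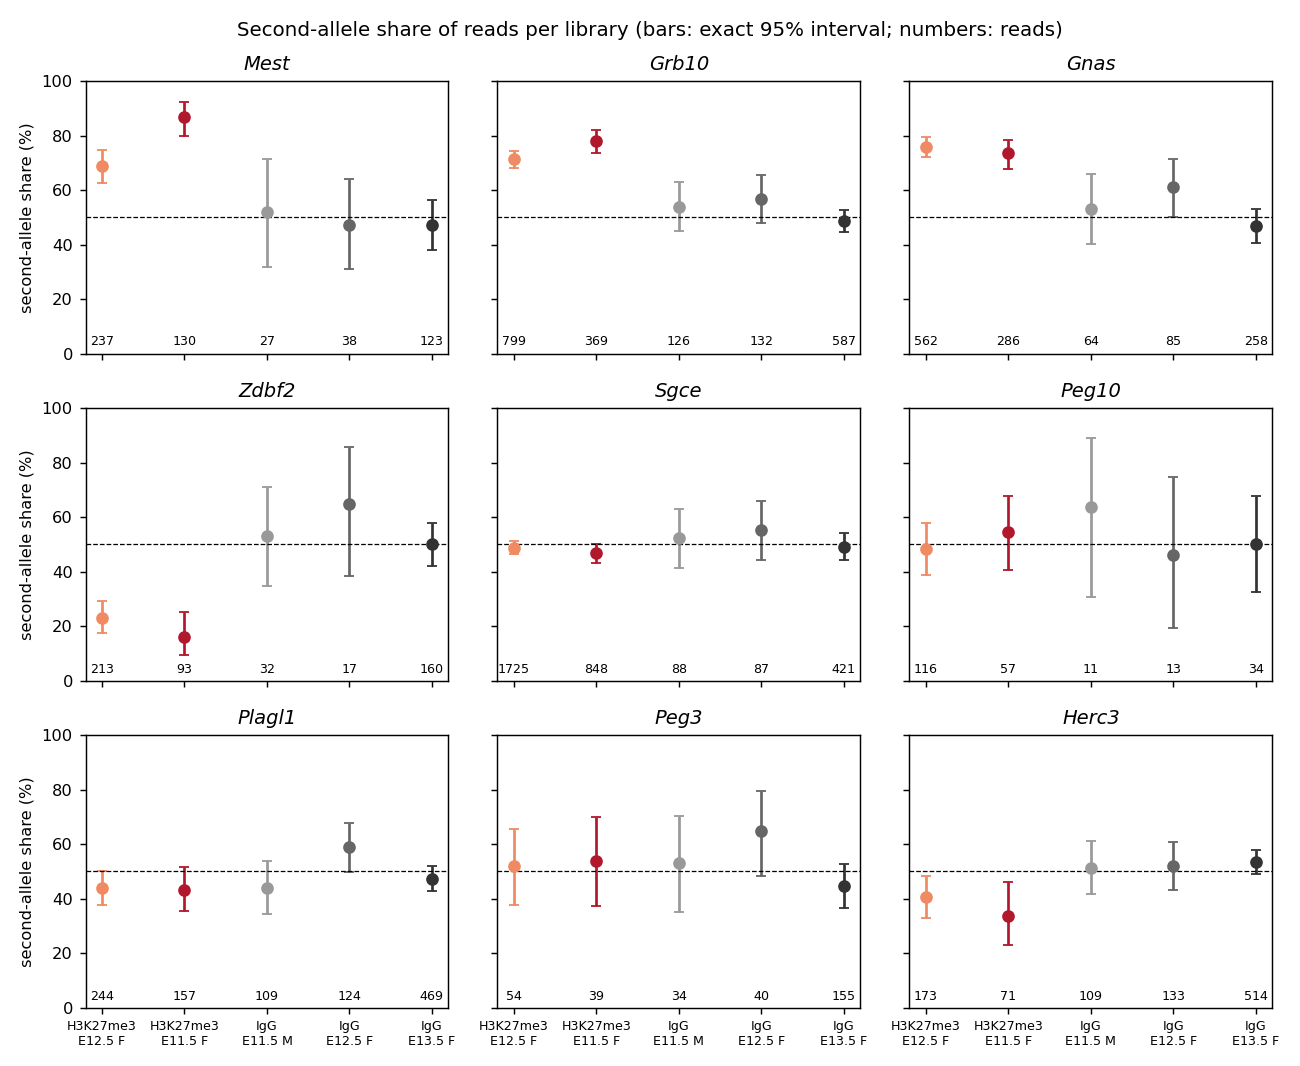
Second-allele share (percent, vertical axis) of the 9 imprinted genes with reads in each of the 5 libraries, with exact 95% binomial intervals as bars, numbers of reads along the bottom and a dashed line at 50%. Grb10, Gnas and Mest lay between 68.8% and 86.9% in the H3K27me3 libraries, and Zdbf2 lay at 23.0% at E12.5 and 16.1% at E11.5.

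The 4 genes thus had 1 allele alone at 2-fold IgG or more in CPM, and which allele it was did not change between stages. As background to those shares, 5.05% of 15492 genes of chromosomes 1 to 19 with at least 20 reads lay at least 20 points toward the second allele at E12.5 and 1.54% toward the first. At E11.5 5.48% of 12541 genes lay that far toward the second and 1.67% toward the first. Of the 9 imprinted genes, 2 lay that far toward the second allele at E12.5 (Grb10 and Gnas) and 3 at E11.5 (with Mest), and 1 toward the first at both stages (Zdbf2). Over all genes with enough reads in both libraries, 3.86% of 12529 were past 20 points on the same side at both stages. The shares chose the genes, so nothing is read from these counts. In IgG, 0 of the imprinted genes with at least 20 reads lay that far from 50%, beside 5.21% of all genes in males at E11.5, 4.56% in females at E12.5 and 4.57% in females at E13.5. With each allele divided by its IgG E12.5 reads, Gnas fell short of 20 points at both stages (67.0% at E12.5 and 63.9% at E11.5) and Grb10 at E12.5 (65.5%), while Mest passed at E12.5 (70.9%). Just inside the threshold stood Grb10 at E12.5 with 71.3%, and just outside it stood Mest at E12.5 with 68.8% and Herc3 at E11.5 with 33.8%.

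Sgce (chr6:4674350-4747204) encodes epsilon-sarcoglycan, a membrane protein mutated in myoclonus dystonia, and its start lies 0.102 kb from that of Peg10. Both are expressed from the paternal copy. Sgce had the most H3K27me3 reads per length of the 9 genes, at 4.72 CPM of both alleles per kilobase at E12.5 and 4.94 at E11.5. The medians over all genes with at least 20 reads were 0.815 at E12.5 and 0.887 at E11.5. The reads of Sgce were split almost evenly. The second allele held 840 of 1725 reads at E12.5, a share of 48.7% (46.3 to 51.1), and 396 of 848 at E11.5, a share of 46.7% (43.3 to 50.1). First-allele reads were 176 CPM at E12.5 and 192 at E11.5, against 30.9, 25.7 and 37.5 in IgG at E11.5, E12.5 and E13.5. Second-allele reads were 167 CPM at E12.5 and 168 at E11.5, against 33.9, 31.7 and 36.3 in IgG at E11.5, E12.5 and E13.5. Over the 3 IgG libraries the folds ran from 4.69 to 6.77 on the first allele and from 4.60 to 5.23 on the second at E12.5. At E11.5 they ran from 5.11 to 7.37 on the first and from 4.63 to 5.26 on the second. Sgce was the most precisely measured of the 9 genes, though its interval at E11.5 reached down to 43.3%. With each allele divided by its IgG E12.5 reads the share was 43.7% at E12.5 and 41.7% at E11.5. Divided by IgG E13.5 it was 49.5% at E12.5 and 47.5% at E11.5.

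Peg10 (chr6:4747306-4760517), a retrotransposon-derived gene needed for the placenta, followed its neighbour with fewer reads. Its share was 48.3% (38.9 to 57.7) on 116 reads at E12.5 and 54.4% (40.7 to 67.6) on 57 reads at E11.5. First-allele reads were 11.95 CPM at E12.5 and 11.03 at E11.5, against 2.95, 4.62 and 2.98 in IgG at E11.5, E12.5 and E13.5. Second-allele reads were 11.2 CPM at E12.5 and 13.2 at E11.5, against 5.16, 3.96 and 2.98 in IgG at E11.5, E12.5 and E13.5. The fold over IgG E13.5 was 3.93 on the first allele and 3.67 on the second at E12.5, and 3.67 on the first and 4.36 on the second at E11.5. The IgG libraries held 11, 13 and 34 reads of Peg10, so the folds over IgG E11.5 and IgG E12.5 are loosely set, the lowest being 2.04 (0.984 to 5.63). Per length Peg10 had 1.75 CPM per kilobase at E12.5 and 1.83 at E11.5. At E12.5 Mest had 1.89, Gnas 1.79, Grb10 1.47 and Zdbf2 1.03, and at E11.5 they had 2.21, 1.94, 1.45 and 0.955. Plagl1 (0.683 at E12.5 and 0.936 at E11.5), Peg3 (0.405 at E12.5 and 0.624 at E11.5) and Herc3 (0.387 at E12.5 and 0.339 at E11.5) had the least. Levels per length differ between genes in IgG too, from 0.451 in Peg10 to 1.15 in Plagl1 in IgG E13.5. They therefore do not rank the genes by the mark alone. Over IgG E13.5, both alleles of Peg10 together stood at 3.84-fold at E12.5, above Gnas (2.47) and Mest (2.19).

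**Figure D2:**
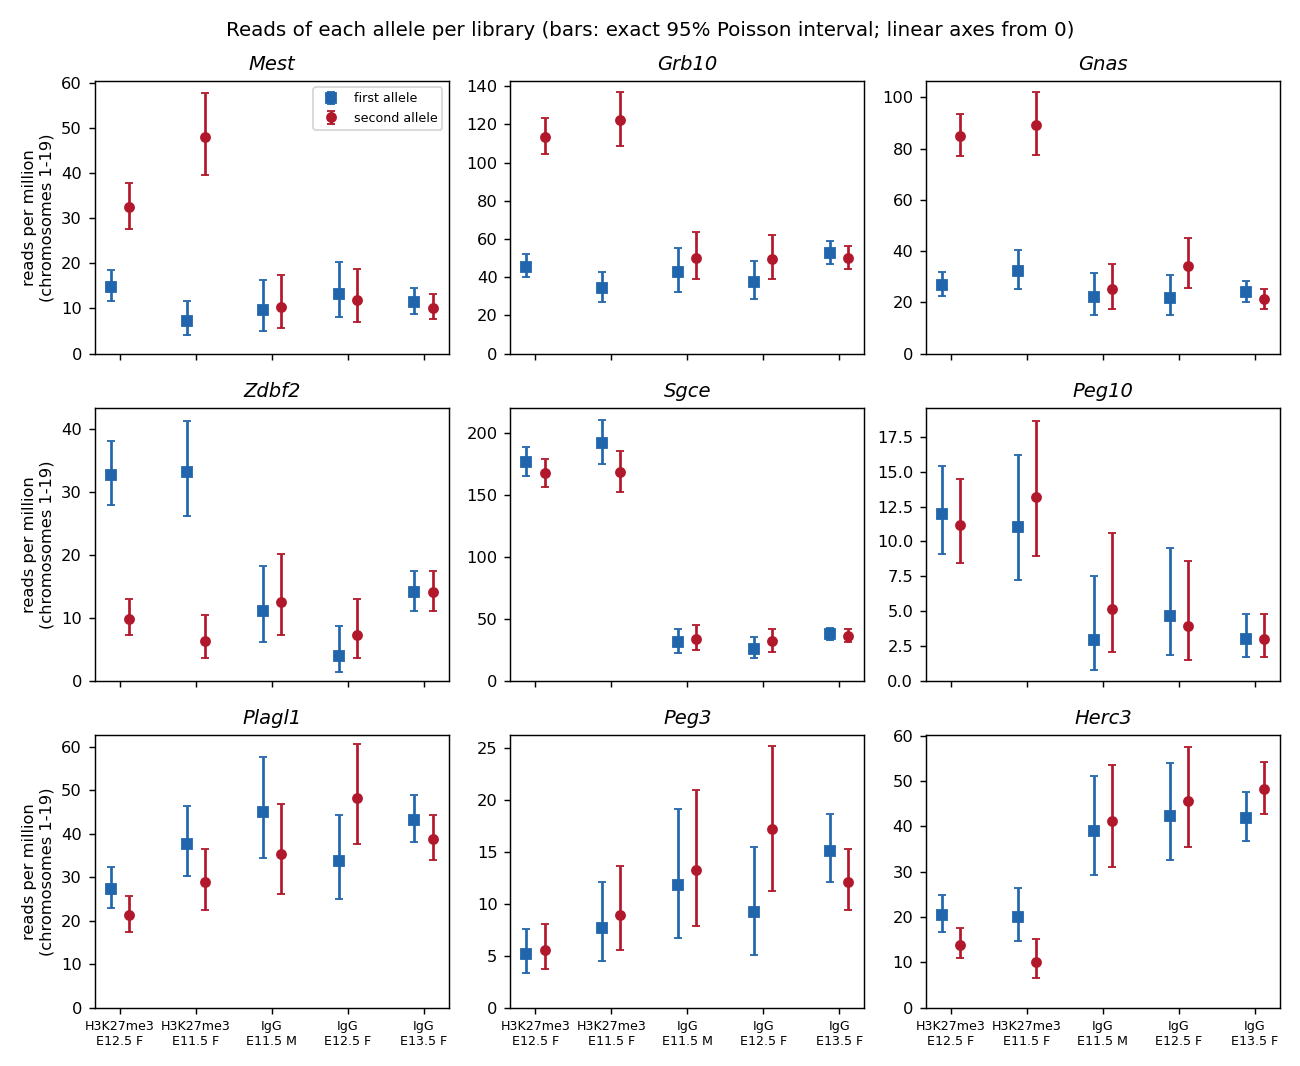
CPM, reads per 1000000 reads of chromosomes 1 to 19 (linear vertical axes from 0, one panel per gene) on the first allele (blue squares) and the second (red circles) in each library, with exact 95% Poisson intervals as bars. Both alleles of Sgce stood at 167 to 192 in H3K27me3 and at 25.7 to 37.5 in IgG, whereas 1 allele of Grb10, Gnas, Mest and Zdbf2 stood apart from the other.

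Herc3 (chr6:58831455-58920398), a ubiquitin ligase gene of the HERC family with the paternally expressed Nap1l5 inside it, leaned toward the first allele at a low level. Its share was 40.5% (33.1 to 48.2) on 173 reads at E12.5 and 33.8% (23.0 to 46.0) on 71 reads at E11.5, against 51.4%, 51.9% and 53.5% in IgG at E11.5, E12.5 and E13.5. First-allele reads were 20.5 CPM at E12.5 and 19.9 at E11.5, and second-allele reads 13.9 at E12.5 and 10.2 at E11.5. All of these were below the 39.0 to 48.2 CPM of either allele in IgG. Both alleles were thus below IgG, the second by more. Over IgG E13.5 the second allele stood at 0.291-fold at E12.5 and 0.215-fold at E11.5, and the first at 0.491-fold at E12.5 and 0.480-fold at E11.5. Of all genes, 3.25% at E12.5 and 1.85% at E11.5 had a lower second-allele fold over IgG E13.5.

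Plagl1 and Peg3 showed neither a one-sided nor an enriched signal. Plagl1 (chr10:13090832-13131694), a paternally expressed zinc finger gene that restrains growth in cell culture, had shares of 43.9% (37.5 to 50.3) on 244 reads at E12.5 and 43.3% (35.4 to 51.4) on 157 at E11.5. Its IgG shares of 44.0%, 58.9% and 47.3% at E11.5, E12.5 and E13.5 spanned both sides of these. Over the 3 IgG libraries its folds lay between 0.442 and 0.806 at E12.5 and between 0.599 and 1.12 at E11.5, taking both alleles. Its counted length of 71191 bases exceeds the RefSeq span of 40863. Peg3 (chr7:6703892-6730462), a paternally expressed zinc finger gene, had shares of 51.9% (37.8 to 65.7) on 54 reads at E12.5 and 53.8% (37.2 to 69.9) on 39 reads at E11.5, against 52.9%, 65.0% and 44.5% in IgG at E11.5, E12.5 and E13.5. Its folds lay between 0.325 and 0.552 at E12.5 and between 0.518 and 0.821 at E11.5. With so few reads a skew of 10 points in Peg3 was not detectable.

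Nnat (chr2:157560078-157562525), a small paternally expressed gene that lies wholly within Blcap, had 0 reads in all 5 libraries. A count of 0 allows up to 3 reads, or 0.598 CPM at E12.5 and 1.27 at E11.5 in H3K27me3, and 2.21, 1.98 and 0.526 in IgG at E11.5, E12.5 and E13.5. Nothing can be said of its mark, since the controls were at 0 as well.

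The folds over IgG need a scale, because most genes had fewer reads in H3K27me3 than in IgG. With each library scaled to its reads of chromosomes 1 to 19, the median gene stood at 0.682-fold IgG E13.5 on the second allele at E12.5 and 0.699-fold at E11.5. On the first allele it stood at 0.697-fold at E12.5 and 0.695-fold at E11.5. The 9 imprinted genes had medians of 2.26 at E12.5 and 2.44 at E11.5 on the second allele, and 1.12 at E12.5 and 0.876 at E11.5 on the first. A fold of 1 therefore lies above the typical gene, and the housekeeping list had medians over IgG E12.5 of 0.399 at E12.5 and 0.568 at E11.5 on the first allele and 0.436 at E12.5 and 0.453 at E11.5 on the second.

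Counting alleles at 2-fold or more gave the same genes in all 6 pairs of an H3K27me3 and an IgG library. On the second allele these were 5 of 9 (Gnas, Grb10, Mest, Peg10 and Sgce) and on the first 3 of 9 (Peg10, Sgce and Zdbf2), with 2 on both (Peg10 and Sgce). The share of all genes that reached 2-fold on the second allele was 14.4% at E12.5 and 15.5% at E11.5 over IgG E13.5, 10.4% at E12.5 and 11.1% at E11.5 over IgG E12.5, and 10.5% at E12.5 and 11.4% at E11.5 over male IgG E11.5. On the first allele it was 14.5% at E12.5 and 15.3% at E11.5 over IgG E13.5, 10.4% at E12.5 and 10.5% at E11.5 over IgG E12.5, and 10.5% at E12.5 and 10.9% at E11.5 over male IgG E11.5. All genes means those with at least 10 IgG reads on each allele, which the 9 genes met over IgG E13.5, though Peg10 did not over the other 2 controls and Zdbf2 did not over IgG E12.5. Levels per allele were part of the choice of the genes, so these counts are a description.

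The scaling decided whether some of the low alleles counted as raised. Under a median-ratio scaling, which sets the median gene to the same level in both libraries, the folds over IgG E12.5 were higher by 0.76 at E12.5 and 0.64 at E11.5 on the log2 scale. First alleles at 2-fold then numbered 5 at E12.5 (with Grb10 at a log2 fold of 1.03 and Gnas at 1.05) and 4 at E11.5 (with Gnas), beside 23.7% of all genes at E12.5 and 20.6% at E11.5. The second allele of Zdbf2 also passed at E12.5 over that control. Over male IgG the first allele of Gnas passed at both stages and that of Mest at E12.5. Over IgG E13.5 the genes past 2-fold were the same under both scalings. Over IgG E12.5 this scaling put the first alleles of Grb10 (a log2 fold of 0.50) and Peg3 (0.35) at E11.5, the first allele of Plagl1 (0.45) at E12.5 and the second allele of Zdbf2 (0.43) at E11.5 above IgG. Which allele of Grb10, Gnas, Mest and Zdbf2 was above the other could not change with the scaling, since a scaling moves both alleles alike. The scalings are therefore no check on the skew.

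**Figure D3:**
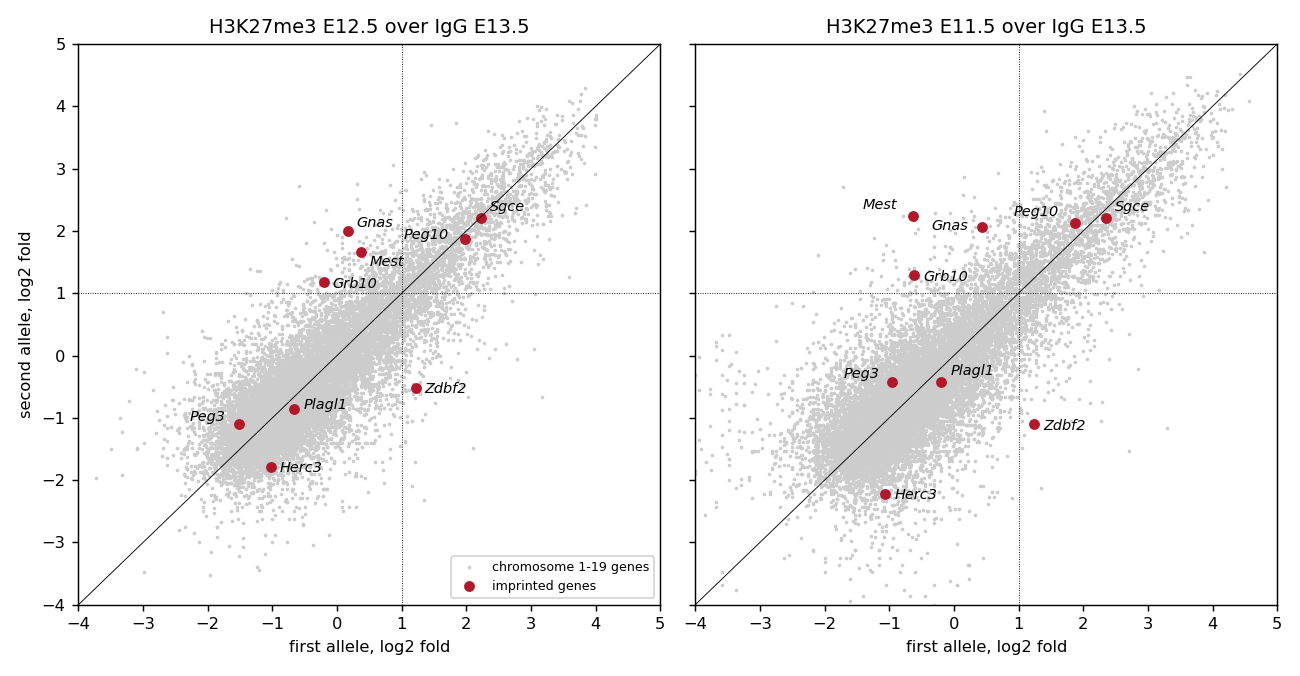
Log2 fold of H3K27me3 over IgG E13.5 on the first allele (horizontal axis) and the second (vertical axis) at E12.5 (left) and E11.5 (right), for genes of chromosomes 1 to 19 with at least 10 IgG reads on each allele (grey) and the 9 imprinted genes (red). Dotted lines mark 2-fold and the diagonal marks equal folds, and genes beyond the axes are not drawn. Grb10, Gnas and Mest lie above the second-allele line only, Zdbf2 right of the first-allele line only, and Sgce and Peg10 past both.

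Between the stages, Mest was the 1 gene of the 9 with a called difference in allele balance. Its second-allele share was 68.8% at E12.5 and 86.9% at E11.5, a difference of -18.1 points (two-sided Fisher's exact test on allele reads, p = 8.48e-05, Benjamini-Hochberg adjusted p = 0.0178 over 13014 genes). The test compares these 2 libraries and not the stages, since each stage had 1 library, and both shares were known when the genes were chosen. First-allele CPM were 2.0-fold (1.19 to 3.69) as high at E12.5 as at E11.5, and second-allele reads 0.676-fold (0.529 to 0.868) as high. Both alleles together were 0.854-fold (0.688 to 1.07). When each count was divided by 2, to allow for reads counted as pairs, the difference was -18.9 points and the call was lost (adjusted p = 1 by Fisher's exact test).

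The other 8 genes with reads were not called between stages. Grb10 had the next smallest p, with a share 6.71 points lower at E12.5 (Fisher's exact test, p = 0.0155, adjusted p = 0.524). Gnas differed by 2.55 points and Sgce by 2.0, whereas Zdbf2 differed by 6.88 points (Fisher's exact test, adjusted p = 0.938), like Herc3 by 6.66, all higher at E12.5. Plagl1 was 0.54 points higher, and Peg10 and Peg3 were lower by 6.11 and 1.99 points on few reads. Over all genes the median size of the difference was 4.35 points. The test called 30 genes higher at E12.5 (0.231%) and 60 lower (0.461%). The shares were known when the 9 genes were chosen, so nothing is read from 1 of 9 beside that background. Only 2 of the 9 had an unadjusted p under 0.05, as did 895 of the 13014 genes tested. The same test between IgG E13.5 and IgG E12.5, where no targeted mark is involved, called 0 of the 7 imprinted genes with enough reads and 0.465% of 12251 genes. There, 3 of the 7 (Gnas, Peg3 and Plagl1) had an unadjusted p under 0.05, beside 753 of the 12251 genes. Their shares were 61.2%, 65.0% and 58.9% in IgG E12.5 and 46.9%, 44.5% and 47.3% in IgG E13.5. Mest had a difference of -0.21 points between these IgG libraries.

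Levels of both alleles together differed by less than their counting intervals between the H3K27me3 libraries in 8 of the 9. Plagl1 was lower at E12.5, at 0.729-fold of its E11.5 level (0.595 to 0.897), the only 1 of the 9 whose interval left out 1. Grb10 had 1.32-fold (1.03 to 1.73) as many first-allele CPM at E12.5 as at E11.5, and 0.928-fold (0.805 to 1.07) as many second-allele reads. Sgce stood at 0.955-fold (0.879 to 1.04) and Gnas at 0.922-fold (0.799 to 1.07) for both alleles together.

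**Figure D4:**
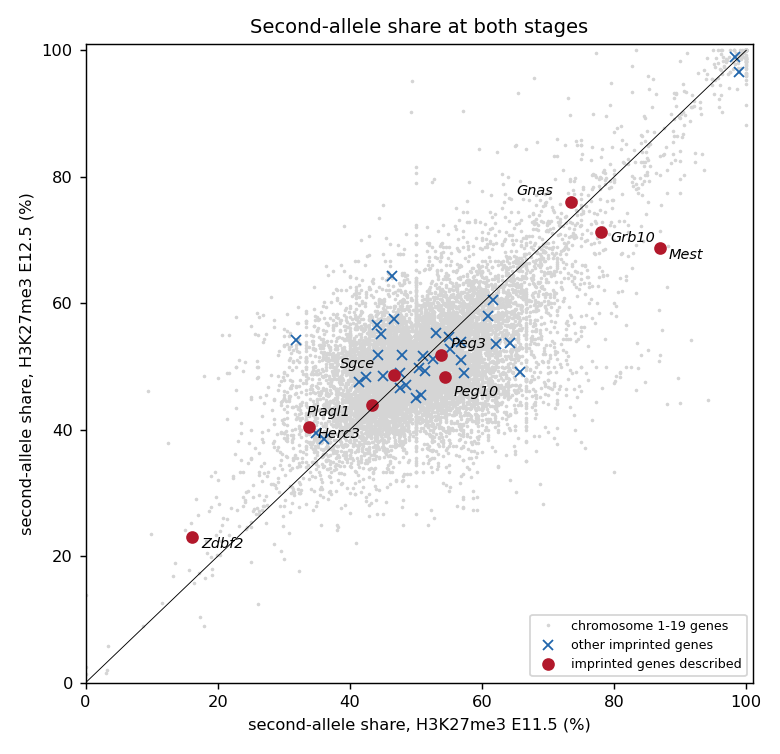
Second-allele share at E12.5 (vertical axis, percent) against E11.5 (horizontal axis, percent) for all genes with enough reads (grey), the other imprinted genes (blue crosses) and the 9 imprinted genes with reads (red). Mest lies below the diagonal, at 68.8% at E12.5 and 86.9% at E11.5, Grb10 and Gnas lie between 71.3% and 78.0%, and Zdbf2 lies at 23.0% at E12.5 and 16.1% at E11.5.

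Genes around the 10 mostly lay within 20 points of an even split. Within 500 kb of the 10 genes lay 70 other genes that had 20 reads or more at each stage. Of these, 1 was past 20 points on the same side at both stages, beside 3.86% of all genes with enough reads. Of the 10 themselves, only Grb10, Gnas and Zdbf2 were past 20 points at both stages. The count thus does not show how far a skew reaches. The 11 neighbours of Mest had a median share of 54.8% at E12.5 and 55.6% at E11.5. The 9 of Zdbf2 had 49.8% at E12.5 and 50.4% at E11.5, the 6 of Grb10 47.4% at E12.5 and 55.1% at E11.5, and the 5 of Gnas 56.7% at E12.5 and 59.2% at E11.5. Next to Grb10, Ddc, the aromatic amino acid decarboxylase gene, had 51.6% at E12.5 and 51.1% at E11.5, and Cobl, 199 kb away, had 60.5% at E12.5 and 61.7% at E11.5. Near Gnas, Ctsz, a cathepsin gene 80.8 kb away, had 69.4% on 85 reads at E12.5 and 61.7% on 47 at E11.5. Edn3, also near Gnas, had 48.8% at E12.5 and 50% at E11.5, so the neighbours of Gnas did not all lean one way. Of the neighbours past the threshold at 1 stage or neither, the highest share at E12.5 was that of Stx11, near Plagl1, at 72.8% (69.9% at E11.5), and the lowest that of Vstm2l, near Nnat, at 30.6% (31.4% at E11.5).

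**Figure D5:**
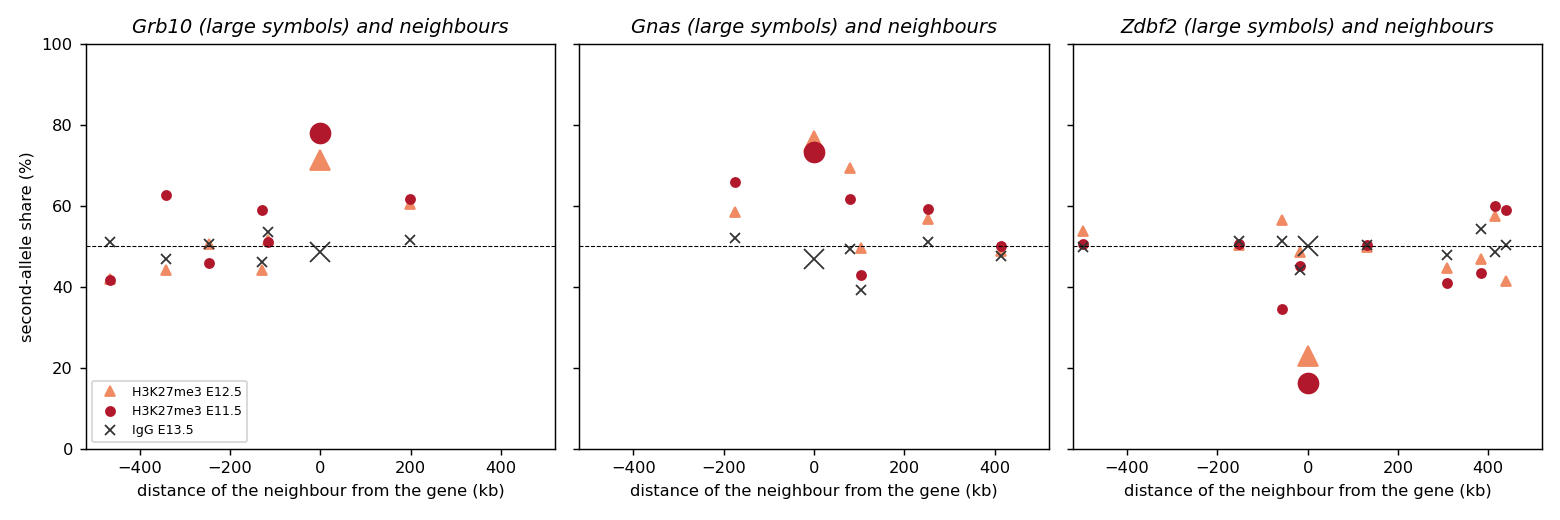
Second-allele share (vertical axis, percent) against distance along the chromosome (horizontal axis, kb) for genes within 500 kb of Grb10, Gnas and Zdbf2, in H3K27me3 at E12.5 (triangles), H3K27me3 at E11.5 (circles) and IgG E13.5 (crosses), with large symbols for the gene itself. The 3 genes have the most one-sided H3K27me3 shares of their panels at both stages.

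The other imprinted genes were mostly even. Of 53 further names, listed by their imprinted status and not by their values, 43 were in the tables and 34 had 20 reads or more at each stage. Their median share was 51.7% at E12.5 and 50.6% at E11.5. Past 20 points at both stages were 2 genes on the side of the second allele and 0 on the other. They were Dlk1, a Notch-related ligand gene (96.6% at E12.5 and 98.9% at E11.5), and Gatm, a creatine synthesis gene (98.9% at E12.5 and 98.4% at E11.5), and both had 100% in every IgG library, Dlk1 on 2, 12 and 25 reads and Gatm on 16, 7 and 63. Shares this high were thus present without the H3K27me3 antibody in Dlk1 and Gatm, whereas the IgG shares of Grb10, Gnas, Mest and Zdbf2 lay between 46.9% and 64.7%. Without Dlk1 and Gatm, the highest shares were 64.3% for Pon2 at E12.5 and 65.7% for Zim1 at E11.5, and the lowest 38.5% for Casd1 at E12.5 and 31.9% for Magel2 at E11.5. Between stages Fisher's exact test called 0 of the 34. The list's median level of both alleles over IgG E13.5 was 0.798-fold at both stages, beside 0.686 at E12.5 and 0.687 at E11.5 for all genes, and 1.55 at E12.5 and 1.52 at E11.5 for the 9.

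For each of the 8 imprinted genes with 50 or more H3K27me3 reads at each stage, the closest gene by its 5 shares was sought. Peg3 had fewer at E11.5. The closest genes lay on other chromosomes, apart from Ankrd24 on chromosome 10 with Plagl1. The measure was the Euclidean distance in percentage points to 7006 genes with 50 or more H3K27me3 reads at each stage and 20 or more in each IgG library. The IgG minimum was not asked of the 8 themselves. Zdbf2 fell short of it with 17 reads in IgG E12.5, and Peg10 with 11 in IgG E11.5 and 13 in IgG E12.5. Grb10 was closest to Glp1r (6.07 points), Gnas to Rasa4 (9.38), Zdbf2 to Fbxo17 (7.05) and Mest to Ifngr2 (10.7). The genes without a share past 20 points had closer partners, at 1.79 points for Sgce with Cacnb4, 3.14 for Plagl1 with Ankrd24, 3.33 for Peg10 with Blmh and 3.95 for Herc3 with Kcnh6. The distances of the first 4 were thus larger than those of the other 4. Few genes have shares that far from 50%, so this follows from the shares themselves and nothing is read from it.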

How the data were processed

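The authors deposited 1 table per library, with whole-number counts of reads on 2 alleles per gene and the second allele's fraction of them. The submitters' processing notes name Bowtie2 2.4.2, featureCounts, GATK, SAMtools 1.11, Trim Galore 0.6.6 and the build mm10, among other tools. How duplicates were handled and alleles assigned is not given in the sources used here. The deposited fraction equals the second count over the sum.

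From the counts, shares were computed with exact Clopper-Pearson intervals. Levels per allele were scaled to reads of chromosomes 1 to 19 (CPM), and folds over each IgG library used 0.5 added reads and exact intervals for a ratio of Poisson counts. Two-sided Fisher's exact tests with Benjamini-Hochberg adjustment (threshold 0.05) ran over all genes of chromosomes 1 to 19 and X with at least 20 reads in both libraries, and the script was checked on simulated counts. Python 3.11.15, numpy 2.4.6, pandas 2.3.3, scipy 1.17.1 and matplotlib 3.10.9 were used. Samples were grouped by title. Coordinates came from RefSeq, GRCm38.p6.

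The genes and lists were chosen with earlier results of these data known. Named beyond the 10 were other imprinted genes and neighbours past 20 points on the same side at both stages, the highest and lowest otherwise, and the nearest gene by pattern. Ddc, Cobl, Ctsz, Edn3, Rtl1, Copg2 and Gpr1 were named after their values were seen. Background counts at 2-fold took genes with at least 10 IgG reads on each allele. This filter replaced one of 20 reads of both alleles together after that one was seen to count genes with 0 reads of an allele. Alternatives covered thresholds, read minimums, controls, scalings, pseudocounts, halved counts and distances. A result on 1 neighbouring gene is not reported here.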

Additional observations from a re-analysis of the deposited data

Results flagged for a closer look

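Mest was singled out because its allele balance differed between the H3K27me3 libraries by Fisher's exact test. Its second-allele share was 68.8% at E12.5 and 86.9% at E11.5, a difference of -18.1 points (Fisher's exact test, adjusted p = 0.0178, range 0.0115 to 0.0214 under other read minimums and gene sets, and 1 with each count divided by 2). Other read minimums and gene sets leave the reads of Mest and its unadjusted p as they are, so that range reflects only the adjustment. Of these alternatives only the division by 2 changed the counts, and it lost the call. Both shares were known when the gene was chosen. The difference was in the direction of a more even split at E12.5, in the 1 library of each stage.

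Peg3 was singled out because its share lay on opposite sides of IgG of the same age. It was 13.1 points lower than IgG E12.5 at E12.5 (a difference of -13.1 points) and 0.905 points higher than IgG E11.5 at E11.5. The H3K27me3 share was 51.9% at E12.5 and 53.8% at E11.5, and the IgG share was 65.0% at E12.5 and 52.9% at E11.5. The change in the distance from IgG was not tested. It rests on 54 H3K27me3 reads and 40 IgG reads at E12.5, and on 39 and 34 at E11.5, and the E11.5 IgG library came from males.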

How the results depend on the processing

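No paired analysis was possible because each group compared had 1 library with a file. For the same reason no library was left out in turn.

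Over 216 alternatives for the 36 per-allele folds, 189 stayed within the counting interval and 27 moved beyond it. All 27 came with another IgG control or the median-ratio scaling. The other alternatives changed the pseudocount or took reads of all listed genes as the library total. They hardly change a fold, so the 189 do not measure how steady the folds are. The fold crossed 1 in 9 of the alternatives, all for alleles under 2-fold (first alleles of Grb10, Plagl1 and Peg3 and the second of Zdbf2). Of 36 alternatives for the 18 shares 26 stayed and 10 moved, and 3 crossed 50%, all on division by IgG E12.5 (Peg3 to 37.4% at E12.5 and 39.3% at E11.5, Peg10 to 51.6% at E12.5). The counts of genes past the threshold were less steady. A threshold of 15 points gave 2 imprinted genes on the first-allele side at E11.5 (Zdbf2 and Herc3), and 30 points gave 1 on the second-allele side at E11.5 (Mest) and 0 on either side at E12.5. With each allele divided by its IgG E12.5 reads, 0 were left on the first-allele side at both stages, since Zdbf2 has 17 reads in that library, and 1 on the second-allele side at E12.5 (Mest), against 2 at E11.5 (Grb10 and Mest), so that Gnas passed at neither stage. Division by IgG E13.5 brought Mest past 20 points at E12.5 (71.1%). Of the other imprinted genes, 2 passed on the first-allele side at E11.5 at 15 points. Divided by IgG E13.5, 1 passed on the second-allele side at each stage, a different gene each time (Rtl1 at E12.5 and Dlk1 at E11.5). Divided by IgG E12.5, 0 passed there at E12.5 and 1 at E11.5, with 1 on the first-allele side at each. With counts divided by 2 the stage test gave 8 genes with a higher and 23 with a lower share at E12.5, and 0 of the 9. Within 1000 kb, 2 neighbours passed. Why these counts moved was not tested, except where named.

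Counts of all genes past 20 points were 783 toward the second allele (340 to 1212 over the alternatives) and 239 toward the first (40 to 556) at E12.5, and 687 (310 to 1199) and 209 (39 to 517) at E11.5. The filter on IgG reads, chosen after seeing the data, moved the share of all genes at 2-fold by little, the highest being 15.5% with it and 16.5% under the filter it replaced. Peg3 and Peg10 rest on the fewest H3K27me3 reads of the 9 (39 and 57 at E11.5).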

Other observations

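Near Nnat, which had 0 reads, and Plagl1, whose shares were within 20 points of an even split, other genes had well-read uneven shares. They were noticed after their values were seen and were not tested. Mroh8, 352 kb from Nnat, had 34.5% on 2223 H3K27me3 reads at E12.5 and 35.8% on 1006 at E11.5, against 43.0%, 50% and 49.4% in IgG at E11.5, E12.5 and E13.5. Vstm2l, on the other side of Nnat, had 30.6% at E12.5 and 31.4% at E11.5, against 46.9%, 57.8% and 40.1% in IgG. Around Plagl1, Phactr2, an actin regulator gene 76.0 kb away, had 39.5% on 965 reads at E12.5 and 34.9% on 558 at E11.5, against 44.9%, 51.7% and 48.4% in IgG. Stx11, a syntaxin gene 153 kb from Plagl1, leaned the other way, with 72.8% at E12.5 and 69.9% at E11.5, against 51.2%, 47.1% and 48.1% in IgG.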
